A study of Rattus norvegicus with 63 samples.

Results

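Cyclin E2 and the Aurora kinases were followed as proteins in the livers of rats given 1 of 15 compounds or the vehicle. The analytes were chosen by name: all measured forms, total or phosphorylated, whose symbol was CCNE2, AURKA or AURKB. 5 of 158 analytes met this rule, namely CCNE2, AURKA, AURKB, a phosphorylated form of AURKA (AURKA_P-T288) and an antibody signal named AURKA_P-T288/T232/T198. The rule itself used no measured value, but the members were chosen with earlier results of these data known. Each analyte was read on a reverse-phase protein array of the ZeptoMARK platform, on which liver lysates are printed as spots and probed with an antibody against 1 protein or modification. The deposited value is the relative fluorescence intensity (RFI), on a linear scale.

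Cyclin E2 binds and activates CDK2 and drives cells from G1 into S phase, and in resting adult liver its level is normally low. Aurora A (AURKA) acts at centrosomes and the spindle poles in mitosis, whereas Aurora B (AURKB) is the kinase of the chromosomal passenger complex and phosphorylates histone H3 on serine 10. Both kinases are switched on by phosphorylation of a threonine in their activation loop. In the name AURKA_P-T288 the residue is that threonine of Aurora A. The triple name AURKA_P-T288/T232/T198 lists the matching threonines of Aurora A, B and C, so that this signal cannot be assigned to 1 kinase.

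The animals were 63 male Wistar Hanover rats, 8 to 10 weeks old at the start, dosed by gavage. The 21 groups held 3 animals each, with 45 treated and 18 control animals. Control sets 1, 2, 5 and 6 had received methylcellulose (MC) and control sets 3 and 4 corn oil (CO). Set 1 was labelled as the control of acetamide (AA, 3000 mg/kg per day, 14 days), dehydroepiandrosterone (DHEA, 600, 14 days), methylcarbamate (Mcarb, 400, 14 days), methapyrilene (MPy, 60, 7 days), thioacetamide (TAA, 19.2, 7 days) and Wy-14643 (Wy, 60, 3 days). Set 2 belonged to cefuroxime (CFX, 250, 14 days) and nifedipine (Nif, 3, 14 days). Set 5 belonged to diethylstilbestrol (DES, 10, 3 days), ethionine (ETH, 200, 14 days) and piperonylbutoxide (PBO, 1200, 3 days). Set 6 belonged to phenobarbital (PB, 14 days, no dose in the labels, although the text of the study's methods gives one). Set 3 (7 days) served C.I. Direct Black (CIDB, 146, 7 days) and dimethylnitrosamine (DMN, 4, 7 days), and set 4 (14 days) served cyproterone acetate (CPA, 100, 14 days). All MC controls were labelled with 14 days, whereas MPy, TAA, DES, PBO and Wy were labelled with shorter dosing. The study's methods describe the controls as matched in time, so the labels and the methods differ for these 5 compounds. If the labels hold, treatment and dosing time cannot be told apart there. The methods state that the treated animals had been selected from bigger groups because their livers showed some histopathological change.

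The hepatocyte factor HNF4A was measured in all 63 animals, at an RFI of 1.07 to 2.93. Of the other hepatocyte markers, GLUL was at or below 0 in 10 animals, and CYP2B6_1, CYP2B6_3 and CYP2E1_2 in 1 animal each. The remaining signals of CYP1A2, CYP2B6, CYP2C8, CYP2E1 and CYP3A4 were above 0 in all animals. Albumin and the markers of other liver cells on the list used (VIM, ACTA2, KRT19, PTPRC, CD68 and PECAM1) had no analyte, so the share of non-parenchymal cells was not assessable, and in whole tissue more cells with a protein and more protein per cell cannot be told apart. The median RFI of an animal over all analytes ran from 0.425 to 0.882. The highest belonged to animal 1 of control set 6, the control of PB, whose set mates stood at 0.587 and 0.597.

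The members were weak to moderate signals. Median RFI over the 63 animals was 0.215 for CCNE2 (range 0.145 to 0.631), 0.0993 for AURKA (0.0657 to 0.168), 0.235 for AURKA_P-T288 (0.156 to 0.364), 0.0851 for AURKA_P-T288/T232/T198 (0.0605 to 0.148) and 0.880 for AURKB (0.637 to 1.32). AURKA_P-T288/T232/T198 had the lowest median of all 158 analytes and AURKA the 4th lowest. RFI depends on the antibody, so these levels do not rank the proteins against each other. CCNE2 varied most, by 4.36-fold between the lowest and the highest animal, against 2.08-fold for AURKB. Group membership accounted for 70.6% of the variance of log2 RFI for CCNE2, 50.6% for AURKA_P-T288/T232/T198, 36.8% for AURKA, 35.7% for AURKA_P-T288 and 27.8% for AURKB.

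**Figure D1:**
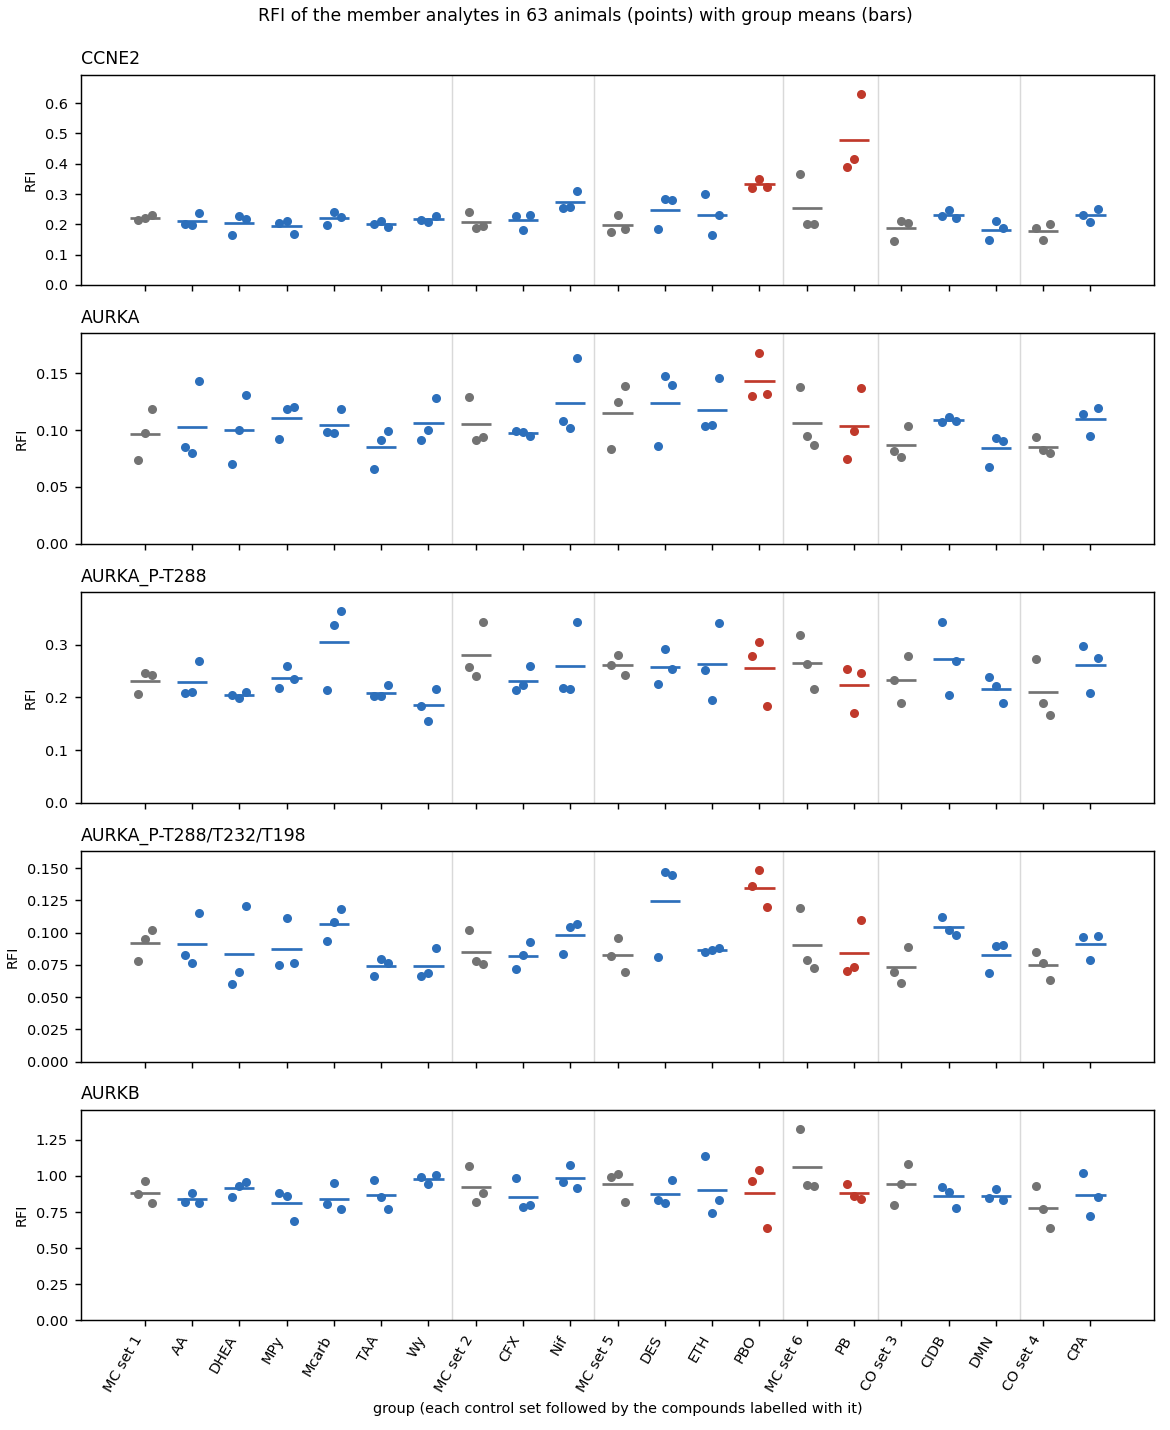
RFI (linear axis from 0) of the 5 member analytes in each of 63 rats. Points are animals, bars are means of 3 animals, control sets are grey, PB and PBO red and other compounds blue; CCNE2 was highest in PB (0.389 to 0.631) and PBO (0.321 to 0.351), while the AURKB groups overlapped along the whole order of their means.

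Each compound was compared with its labelled control set, and an analyte was called at a limma p below 0.05 after Benjamini-Hochberg adjustment over the 158 analytes. Of the 75 comparisons of a member with a compound 3 were called, all with a higher level in treated animals: CCNE2 in PB, and CCNE2 and AURKA_P-T288/T232/T198 in PBO. That is 4% of the member tests, beside 75 of all 2370 tests or 3.16%. In PB 1 of 5 members was called where 5.06% of all analytes were, and in PBO 2 of 5 where 6.33% were. No member was called in the other compounds, in which the called share of all analytes was 0% for AA, CFX, Mcarb, MPy and Nif, 7.59% for CIDB, 5.06% for CPA, 2.53% for DES, 6.33% for DHEA, 1.27% for both DMN and ETH, 3.16% for TAA and 8.86% for Wy. The estimate was above 0 in 35 of the 75 comparisons, and 5 had an unadjusted p below 0.05.

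CCNE2 was higher in PB than in any other group. The RFI of the 3 PB animals was 0.389, 0.417 and 0.631, and that of control set 6 was 0.367, 0.1996 and 0.1995. All PB animals lay above all 3 controls, although the lowest PB animal exceeded the highest control by little. The share of analytes whose 3 treated and 3 control animals did not overlap was 19.6% in PB. The log2 fold change was 0.94 (SE 0.20, n = 3 and 3, limma adjusted p = 0.0014), or 1.91-fold, with a 95% interval of 0.53 to 1.34. The high control value came from animal 1, the control with the brightest array signals overall. Without this animal the log2 fold change was 1.23, and with every animal centred on its own median it was 1.34. The deposited log2 matrix gave 1.78 under this name, but within groups that row followed the CCNE2 RFI weakly (Spearman rho = 0.286). Whether that row carries another antibody or differs through the authors' further processing was not tested. Against the MC control sets 1, 2 and 5, a choice made after seeing the data, it was 1.08, 1.18 and 1.26. The call depended on the PB animal with 0.631, without which the log2 fold change was 0.72 (limma adjusted p = 0.0522), and it was also missed when the fit held only the 6 animals of the comparison (limma adjusted p = 0.0521).

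The rise of CCNE2 in PB went against the general shift of that comparison, whose log2 fold changes had a median of -0.29 across the array. Of all 158 analytes CCNE2 had the 3rd highest log2 fold change in PB. The phenobarbital-inducible enzyme signals CYP2B6_1 (2.92, limma adjusted p = 3.9e-09) and CYP3A4_2 (2.26, limma adjusted p = 5.6e-07) were the other 2 analytes called higher. The further signals of these enzymes on the array, CYP2B6_2, CYP2B6_3 and CYP3A4_1, were not called in PB. The hepatocyte factor HNF4A was lower in PB, at 1.44, 1.64 and 1.75 against 2.93, 2.09 and 2.30 (log2 fold change -0.59, SE 0.17, limma adjusted p = 0.035). The highest control was again animal 1, without which the value was -0.45 and not called, and after centring it was -0.18. The part of this shift in the CCNE2 result was not tested. None of the Aurora signals was called in PB: log2 fold changes were -0.06 for AURKA, -0.26 for AURKA_P-T288, -0.09 for AURKA_P-T288/T232/T198 and -0.25 for AURKB.

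In PBO, CCNE2 was 0.321, 0.351 and 0.323, against 0.175, 0.232 and 0.186 in control set 5. The groups did not overlap, which held for 21.5% of all analytes in PBO. The log2 fold change was 0.76 (SE 0.20, n = 3 and 3, limma adjusted p = 0.0118), or 1.69-fold, with a 95% interval of 0.35 to 1.16. It was 0.61 after centring of the animals and 0.62 against all 12 MC controls, both called. The call was lost without animal 7 (0.68, limma adjusted p = 0.0987) or animal 9 (0.72, limma adjusted p = 0.0533) of control set 5, without PBO animal 2 (0.72, limma adjusted p = 0.0615), against control set 1 (0.58, limma adjusted p = 0.147) and against control set 6 (0.44, limma adjusted p = 0.242). Of all 158 analytes CCNE2 had the 10th highest log2 fold change in PBO. Its median RFI of 0.215 was close to those of the 20 dimmest analytes other than the members (at most 0.207). Their median log2 fold change in PBO was 0.45, against 0.15 over all analytes. How much of that shift lies in the CCNE2 result was not tested. Whether CCNE2 responded more to PB than to PBO was not tested, and the pair differed in dosing time, 14 against 3 days.

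Among the remaining compounds CCNE2 stayed within a log2 fold change of -0.19 (MPy) to 0.40 (Nif). Nif had 0.255, 0.257 and 0.309 against 0.240, 0.189 and 0.194 in control set 2, with a 95% interval of -0.0018 to 0.81 and a limma adjusted p of 0.941. The estimates for CPA (0.37), CIDB (0.32) and DES (0.31) were likewise not called. Without a call, the CCNE2 animals also lay wholly above their controls in Nif, CPA and CIDB, and wholly below them in MPy and TAA. The share of all analytes without overlap was 23.4% in CIDB. It was not computed for Nif, CPA, MPy or TAA, so nothing is concluded from the lack of overlap there. The 6 compounds of control set 1 lay between -0.19 and -0.01. In the order of the 21 group means, PB led PBO (0.479 ± 0.133 and 0.332 ± 0.0166, SD, n = 3), followed by Nif (0.274 ± 0.0305) and control set 6 (0.255 ± 0.0965). The animals of PB and PBO and those of PBO and Nif did not overlap, whereas the other 18 of 20 neighbours in the order did. The lowest mean was that of control set 4, 0.178 ± 0.0272.

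**Figure D2:**
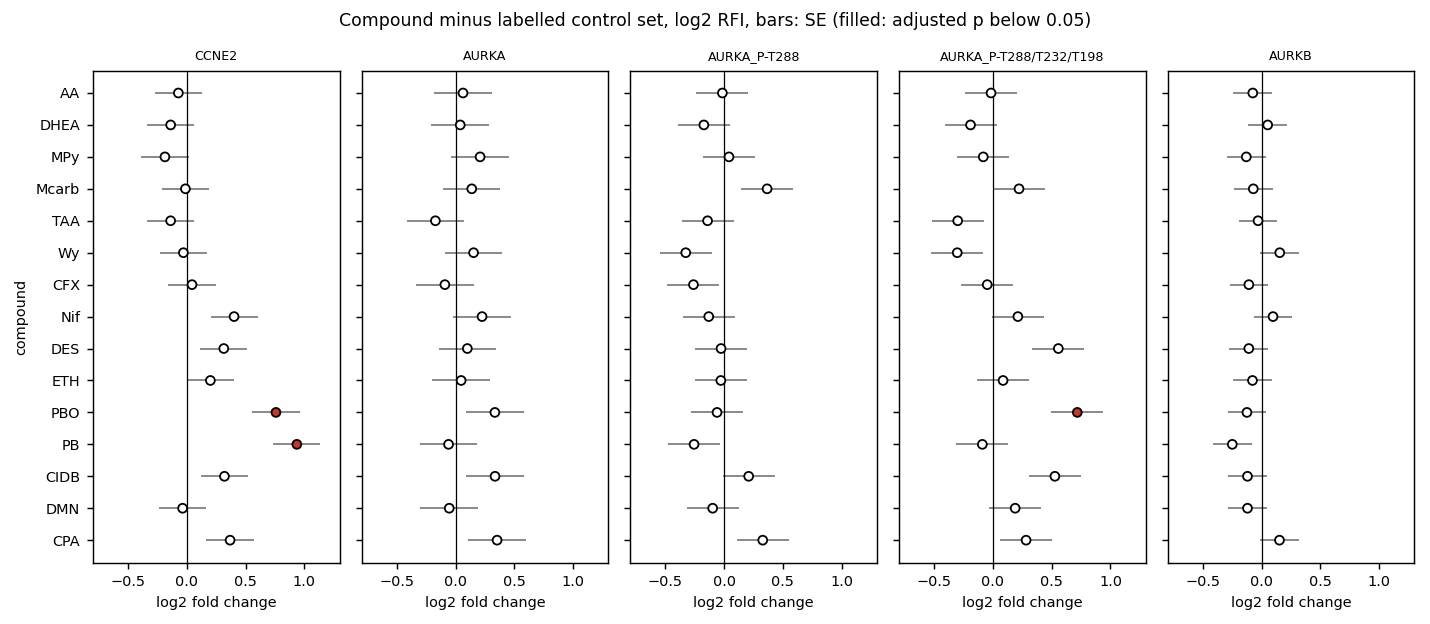
Log2 fold change of RFI for each compound minus its labelled control set, with the SE of the fit as bars, for the 5 member analytes. Filled points passed a limma adjusted p below 0.05: CCNE2 in PBO (0.76) and PB (0.94) and AURKA_P-T288/T232/T198 in PBO (0.72).

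AURKA_P-T288/T232/T198, the signal for the phosphorylated activation loop of the Aurora kinases, was highest in PBO. Its RFI was 0.136, 0.148 and 0.120 in PBO and 0.0816, 0.0958 and 0.0695 in control set 5, without overlap. The log2 fold change was 0.72 (SE 0.22, n = 3 and 3, limma adjusted p = 0.0383), or 1.64-fold, with a 95% interval of 0.27 to 1.16. Dim analytes as a group lay above the rest in PBO: among the 20 dimmest analytes other than the members, all with a median RFI of at most 0.207, 17 had an estimate above 0 and their median log2 fold change was 0.45, against 0.15 over all analytes. Only 1 of these 20 was called, and the part of this shift in the Aurora result was not tested. The call held after centring of the animals (0.57) and against all 12 MC controls (0.64). It was lost without animal 7 or 9 of control set 5, without PBO animal 1 or 2, and against control sets 1 (0.56), 2 (0.67) and 6 (0.61). In the deposited log2 matrix the value under this name was 0.071 (limma adjusted p = 0.980).

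The same signal was above its controls in DES and CIDB without being called. DES, a synthetic oestrogen, gave 0.0809, 0.147 and 0.145, so that 1 animal stood at the control level and the other 2 near the PBO animals. The log2 fold change was 0.56 (SE 0.22, limma adjusted p = 0.304), and without the low DES animal it was 0.84 and called. No member had DES animals that lay wholly apart from control set 5, which 12.7% of all analytes did. CIDB gave 0.112, 0.102 and 0.0984 against 0.0698, 0.0606 and 0.0887 in control set 3, without overlap, as did 23.4% of all analytes in CIDB. Its log2 fold change was 0.53 (SE 0.22, limma adjusted p = 0.202), and 0.48 (limma adjusted p = 0.0356) after centring of the animals. The 20 dimmest analytes had medians of 0.29 in DES and 0.31 in CIDB, against 0.13 and 0.08 over all analytes. The lowest log2 fold changes of the signal were those of TAA and Wy, both at -0.30 and not called. The 20 pairs of neighbours in the order of its group means all overlapped.

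Total AURKA was not called in any compound. Its highest group mean was also that of PBO, 0.143 ± 0.0217 against 0.115 ± 0.0289 in control set 5 (SD, n = 3), with a log2 fold change of 0.33 (limma adjusted p = 0.521). CPA (0.35), CIDB (0.34) and PBO led the order of changes and TAA (-0.17) closed it. The 95% intervals of the 15 compounds reached from -0.66 to 0.85 in all, and each of them included 0. For AURKA_P-T288, the antibody specific to the Aurora A residue, log2 fold changes ran from -0.33 in Wy to 0.36 in Mcarb and none was called. In PBO it was -0.06, with a 95% interval of -0.51 to 0.38, beside 0.72 for the triple-site signal. Both antibodies carry the Aurora A residue in their name, and over 63 animals their deviations from group means had a Pearson r of 0.51 as measured and of 0.07 once each animal was centred on its median. The correlation thus depended on the scaling.

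AURKB was the steadiest of the 5 signals, with an SD of 0.20 on the log2 scale within groups. Log2 fold changes ran from -0.25 in PB to 0.15 in Wy and CPA. No compound was called, and the 95% intervals reached from -0.58 to 0.49 over all 15. The highest single value, 1.32, was that of animal 1 of control set 6.

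The phosphorylated signals were then set against total AURKA within each animal, in a fit of 49 pairs of a modified analyte and a total analyte of the same symbol. Over the 15 compounds 6.94% of all pair tests were called. For AURKA_P-T288/T232/T198 over AURKA only DES was called, with a log2 ratio higher by 0.46 (SE 0.16, limma adjusted p = 0.0446). That call was lost without any single DES animal (0.42 to 0.49) and without animal 8 (0.50) or animal 9 (0.19) of control set 5, whereas it was kept without animal 7 (0.68). PBO had 0.38 (limma adjusted p = 0.139) and Wy -0.46 (limma adjusted p = 0.0704). Each of these was called in 1 of 11 alternatives, PBO without animal 7 of control set 5 (0.60, limma adjusted p = 0.0392) and Wy without animal 6 of control set 1 (-0.54, limma adjusted p = 0.048). AURKA_P-T288 over AURKA was called in no compound, with the lowest value in Wy (-0.48, limma adjusted p = 0.211).

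**Figure D3:**
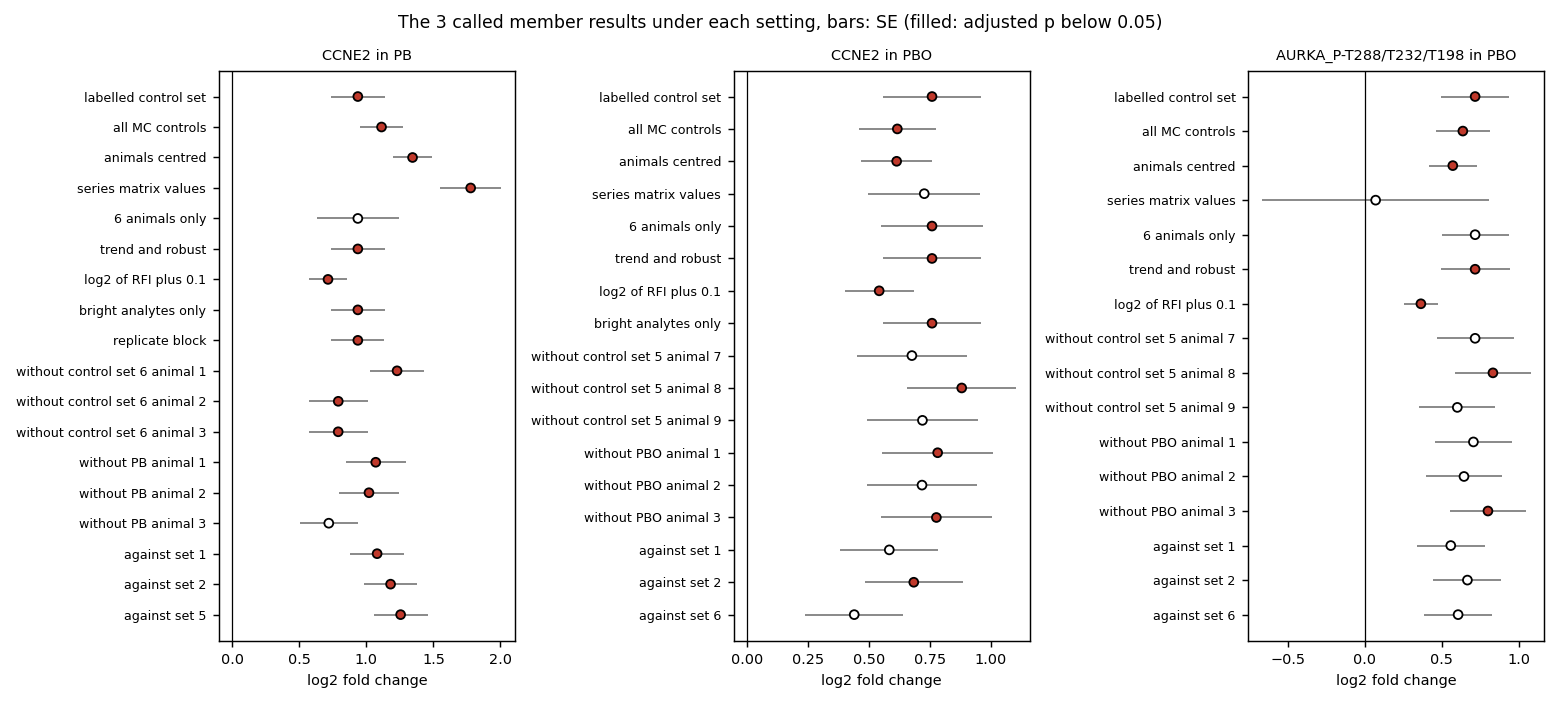
Log2 fold change (x axis) of the 3 called member results under each setting, with the SE as bars; filled points had a limma adjusted p below 0.05. CCNE2 in PB stayed between 0.71 and 1.78, CCNE2 in PBO between 0.44 and 0.88, and AURKA_P-T288/T232/T198 in PBO between 0.07 and 0.83.

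The study asked whether early changes separate non-genotoxic carcinogens (NGC: AA, DES, DHEA, ETH, Mcarb, MPy, PB and PBO), genotoxic carcinogens (GC: CIDB and DMN) and non-carcinogens (NC: CFX and Nif). CPA, TAA and Wy, carcinogens whose mode of action the study treated as undefined, entered none of these classes. With the compound as the unit, no member separated the classes. The mean log2 ratio of CCNE2 to its controls was 0.29 over 8 NGCs, -0.01 over 2 GCs and 0.31 over 2 NCs, and NGC minus GC was 0.30 (SE 0.33, limma adjusted p = 0.841). For AURKA_P-T288/T232/T198 the means were 0.14, 0.41 and 0.20. The smallest adjusted p of a member was 0.711, for AURKB in all carcinogens (C) against NC (-0.16, SE 0.09, limma), a difference that was 0.01 after centring of the animals. The share of all analytes called was 0.633% for NGC against GC, 1.27% for NGC against NC and 0% for C against NC. Both compounds with a CCNE2 call were NGCs, a class that held 8 of the 15 compounds.

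A list of 14 further cell cycle analytes gave the surroundings of these changes. Over all compounds 8 of its 210 tests were called, or 3.81%, near the 3.16% of all analytes. In PBO 1 of 14 was called, where 6.33% of all analytes were: histone H3 phosphorylated at serine 10 (HIST1H3A_P-S10), a site that Aurora B phosphorylates. It was 0.139, 0.161 and 0.117 in PBO against 0.0658, 0.0526 and 0.0881 in control set 5, with a log2 fold change of 1.03 (SE 0.31, limma adjusted p = 0.0341). All PBO animals lay above the controls. This is the called analyte among the 20 dimmest. The call was lost against all 12 MC controls (0.65, limma adjusted p = 0.0741) and without animal 7 or 8 of control set 5 or PBO animal 1 or 2, and in the deposited log2 matrix the value was -0.52 (limma adjusted p = 0.923). The other phosphorylated form of this histone on the array, HIST1H3A_P-S28, which is outside the list and was looked up after these values were seen, was at 0.11 in PBO and was not called.

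The proliferation marker MKI67 (Ki-67) was 0.384, 0.387 and 0.440 in PBO against 0.420, 0.255 and 0.284 in control set 5, so the groups overlapped (0.37, limma adjusted p = 0.521). In PB it was 0.264, 0.267 and 0.307 against 0.469, 0.323 and 0.279 (-0.32, limma adjusted p = 0.378). The S and G2 phase cyclin CCNA2 had -0.32 in PB and -0.21 in PBO, and the G1 cyclin CCND1 -0.50 and -0.02, none of them called. Both compounds with higher CCNE2 thus had no call for another cyclin on the array. The CDK2 inhibitor CDKN1B (p27), a binding partner of cyclin E complexes, was at 0.04 in PB and 0.47 in PBO (limma adjusted p = 0.182).

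In PB 2 of the 14 were called, where 5.06% of all analytes were, and both were lower: MYC (-0.68, SE 0.21, limma adjusted p = 0.0482) and CDKN1B_P-S10 (-0.89, SE 0.27, limma adjusted p = 0.0473). Each call held in 6 of 14 alternatives. Both were lost without animal 1 of control set 6 (-0.39 and -0.64), after centring of the animals (-0.27 and -0.48) and against all 12 MC controls (-0.32 and -0.63), settings under which CCNE2 remained called in PB. They were also lost with the matrix (-0.13 and -0.60), in the fit of 6 animals and without any single PB animal. The median log2 fold change of the list was -0.33 in PB, beside -0.29 over all analytes and -0.09 over the 5 members. In PBO it was 0.16, beside 0.15 and 0.33. Across the other 13 compounds no analyte of the list was called higher, and CDKN1B_P-S10 was called lower in 5 of them (CIDB, DES, DHEA, TAA and Wy).

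**Figure D4:**
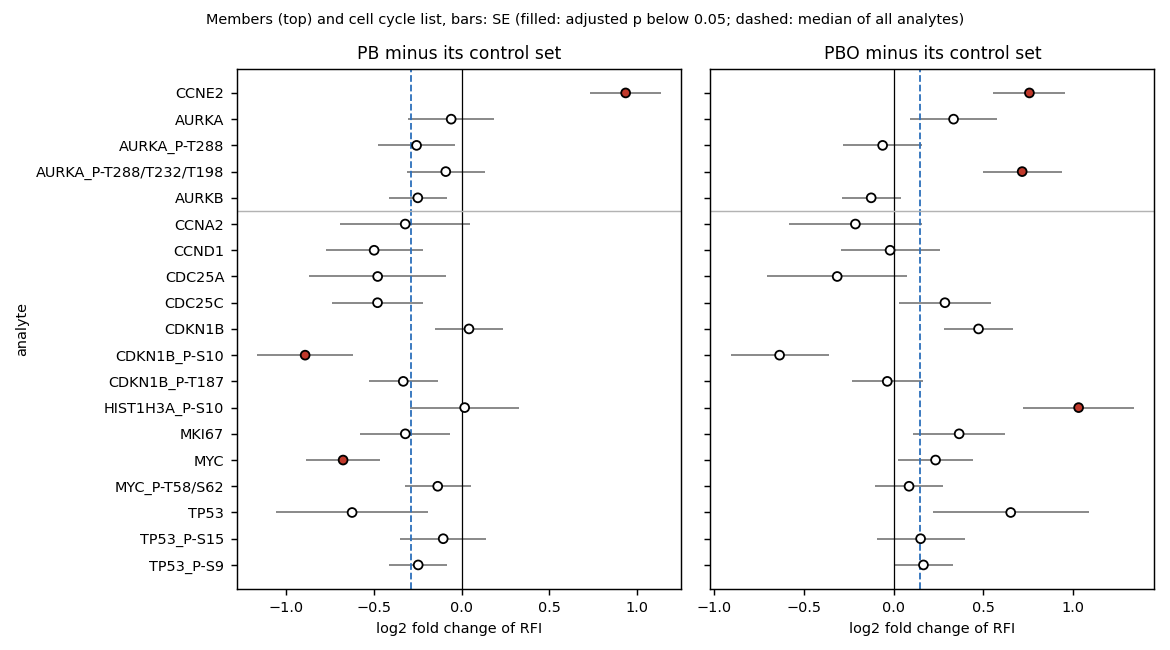
Log2 fold change of RFI with SE for the 5 members (above the line) and 14 other cell cycle analytes in PB and PBO, each minus its control set. Filled points had a limma adjusted p below 0.05 and the dashed line is the median over all analytes (-0.29 in PB and 0.15 in PBO); CCNE2 is the single analyte of these called in both.

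The analytes that moved most like each member from animal to animal were found from the deviations from group means, with every animal first centred on its median. These correlations describe 63 animals, and all analytes of an animal were read from its own lysate. CCNE2 went most with the kinases PAK1 (Pearson r = 0.67, Spearman rho = 0.69) and PDK1 (0.62 and 0.68) and the phosphatase DUSP4 (0.58 and 0.50). Across the compounds these did not share its calls: in PB, log2 fold changes were -0.56 for PAK1, -0.34 for PDK1 and -0.27 for DUSP4, none called, and in PBO they were 0.34, 0.62 and 0.21, again none called. AURKA went most with EGFR_P-Y1045 (r = 0.71), followed by HIST1H3A_P-S10 (r = 0.65) and PRKACA_P-T197 (r = 0.65). AURKA_P-T288/T232/T198 had a nearly shared set, EGFR_P-Y1045 (r = 0.70), PRKACA_P-T197 (r = 0.69) and AURKA itself (r = 0.64). All of these were dim, with median RFI between 0.0949 and 0.134. AURKB went most with RPS6KA4 (r = 0.83), GSK3B (r = 0.77) and the cyclin CCNA2 (r = 0.71), and AURKA_P-T288 with MAPK8_P-T183/Y185 (r = 0.58). AURKA and AURKB had r = -0.47 after centring and 0.09 without it.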

How the data were processed

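Liver lysates were spotted on ZeptoMARK arrays. According to the study's methods, the authors corrected spot intensity for local background, normalized it over the array and averaged replicate spots; the deposited RFI is such an intensity on a linear scale. Whether it was also corrected for secondary antibody alone is not given in the sources used here. The deposited series matrix holds log2 ratios, taken against the median control animal. According to the study's methods, the ratios were formed from blank-corrected signals. Values for which secondary antibody alone gave more than the full signal were set to missing and imputed from nearest neighbours. The matrix served as an alternative, and 0 of its columns lacked a sample. Its rows followed the RFI of the same name unevenly, as deviations from group means over 45 treated animals. Spearman rho was 0.286 for CCNE2, 0.201 for AURKA and 0.111 for AURKA_P-T288/T232/T198. It was 0.601 for AURKB and 0.772 for AURKA_P-T288. Whether this reflects other antibodies under these names or the further processing was not tested. Of the members only AURKA_P-T288 had its own name as the best match. The RFI of CCNE2 was followed best by the matrix row named CDC25C (rho = 0.573).

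RFI was log2 transformed without scaling between animals. Of 9954 values 25 were 0 or negative and were treated as missing, none of them in a member. 21 group means over 63 animals were fitted with limma 3.58.1 (R 4.3.3), with two-sided p-values adjusted by Benjamini-Hochberg over 158 analytes, or over 49 pairs of a modified and a total form. SEs and 95% intervals are those of the fit. For classes, compound means of log2 ratios to the control median were compared. The script was tested on simulated data.

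All members were named, and of the cell cycle list those called or tied to a member by function. Members and lists were chosen with earlier results of these data known. The labels do not say more of the 3 animals of a group than their numbers, and precision is limited by there being 3. Numbers 1 to 3 were shared by PB and CPA with their controls. For CPA, deviations from group means of same-numbered animals correlated with r = 0.31, 0.22 and 0.16 over 158 analytes, so that the numbers were taken to pair these animals. For PB r was 0.03, 0.01 and 0.07, within the -0.19 to 0.13 of its differently numbered animals, so no pairing was seen. The main fit used no pairing, and a replicate block was run only as an alternative. Alternatives were another reference, centring of animals, the matrix, the 6 animals of a comparison alone, a trended robust variance, log2(RFI + 0.1), a filter keeping 144 brighter analytes, a replicate block and leaving out single animals.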

Additional observations from a re-analysis of the deposited data

How the results depend on the processing

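Of 1343 recomputed member values 1313 kept their side of the threshold, and no called member value changed direction. Most of these belonged to results not called at the start, so this share says little about the called ones, which are given below. The 3 member calls became 1 with the matrix values, 1 with the 6 animals of a comparison alone, and 1 to 4 when single animals were left out. CCNE2 in PB was called in 15 of 17 alternatives, with adjusted p from 3.9e-10 to 0.0522; the fit of 6 animals missed it (0.94), and leaving out animals gave 0.72 to 1.23. CCNE2 in PBO was called in 10 of 16, with adjusted p from 0.0029 to 0.242; it was missed with the matrix (0.73) and against control sets 1 (0.58) and 6 (0.44), and leaving out animals gave 0.68 to 0.88. AURKA_P-T288/T232/T198 in PBO was called in 6 of 15, with adjusted p from 0.0132 to 0.980; it was missed with the matrix (0.071), in the fit of 6 animals (0.72) and against control sets 1 (0.56), 2 (0.67) and 6 (0.61), and leaving out animals gave 0.60 to 0.83. The filter on dim analytes removed it and AURKA. The same signal was gained in CIDB after centring (0.48); leaving out animals gave 0.41 to 0.84 in DES. Its ratio to AURKA in DES was missed with all MC controls (0.26), the matrix (0.84), 6 animals (0.46) and log2(RFI + 0.1) (0.23), and ran from 0.19 to 0.68 without single animals; the ranges were 0.12 to 0.60 in PBO and -0.54 to -0.39 in Wy. No class difference was called under the 3 alternatives run, but signs were not stable: against -0.02 for CCNE2 in NGC minus NC they gave 0.05 to 0.17, against -0.08 in C minus NC 0.0011 to 0.12, and against -0.16 for AURKB in C minus NC -0.06 to 0.01; the lowest adjusted p of AURKB was 0.227 (NGC minus GC, matrix). HIST1H3A_P-S10 in PBO turned to -0.52 with the matrix. The cause of these losses was not tested. Comparisons against other control sets were chosen after seeing the data.

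With the replicate block, CCNE2 was at 0.94 in PB (limma adjusted p = 0.0013) and 0.37 in CPA (limma adjusted p = 0.281), and this paired fit, run for PB and CPA alone, changed no member call in them. The compounds of the other sets, PBO among them, share no numbers with their controls and were not refitted.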
